A study of Ovis aries with 8 samples.

Results

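Metallothioneins are small cysteine-rich proteins that hold zinc and copper, and NRF2 is the transcription factor through which many cells raise their antioxidant genes. Both were measured in cultures labelled as endothelial cells of the pulmonary artery of near-term sheep fetuses (Ovis aries). That artery carries blood from the heart to the lungs. The genes were chosen by name, with earlier results of these data known: MT1E, MT2A, SRXN1, TXNRD1, NQO1, HMOX1, GCLM, GCLC, SLC7A11 and NFE2L2. Of these 10 genes, 9 had a row among the 15380 rows of the deposited array table. GCLM, the modifier subunit of the enzyme that starts glutathione synthesis, matched no row and was not analysed here.

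The 8 arrays held 4 cultures labelled IUGR Hyperthermic, from a growth restriction model, and 4 labelled Control Normothermic. IUGR stands for intrauterine growth restriction. The IUGR cultures were at passage 3 or 4 and the control cultures at passage 5 or 6. Growth restriction, hyperthermia and passage therefore cannot be told apart. All cultures were grown in the same serum-containing medium, and each came from its own numbered fetus according to the titles. Intensity values are linear array brightness, and log2 values were taken after values below 5.89 units, the 10th percentile of the table, had been raised to that floor. The median intensity of an array was 37.7 to 41.1 units. Differences are IUGR minus control on the log2 scale, and the number of arrays limits their precision.

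In unstressed cells KEAP1 holds NRF2 and hands it to a ubiquitin ligase. When oxidants or electrophiles modify KEAP1, NRF2 accumulates, pairs with a small MAF protein and switches on genes for quinone reduction, glutathione synthesis, the thioredoxin cycle and haem breakdown. Metallothionein genes answer mainly to zinc through the factor MTF1, and they also respond to glucocorticoids and oxidative stress. These roles are known chiefly from human and mouse cells.

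The labelled cell type was checked against its markers, because the cultures differed in them. The summed intensity of 14 measured endothelial markers was 233 to 7317 units in IUGR cultures and 6347 to 12768 units in control cultures. It was 295 and 233 units in IUGR replicates 2 and 4, where 6 of the 14 markers lay at or below a background level of 10.8 units. That level is the 95th percentile of olfactory receptor rows, 3.44 on the log2 scale. PECAM1, an endothelial junction protein, stood at 199, 9.89, 725 and 12.3 units in IUGR replicates 1 to 4, against 2216, 2513, 2995 and 788 units in control replicates 1 to 4. The summed intensity of 12 fibroblast markers was 11706 to 22619 units in IUGR cultures, against 908 to 1876 units in control replicates 1 to 3 and 14794 units in control replicate 4. The 8 measured mesothelial and epithelial markers summed to 8899 and 13639 units in IUGR replicates 2 and 4, and to 129 to 184 units on the other arrays. The 8 measured leukocyte markers summed to 249 to 1225 units in IUGR cultures and 522 to 1476 units in control cultures, with 2 to 4 of them at or below the background level on an array. Among them PTPRC, the pan-leukocyte marker, lay below that level on every array, while CD68, of macrophages, was 63.5 to 164 units. Across rows, log2 values of control replicate 4 correlated at 0.917 to 0.922 with the other controls and at up to 0.957 with an IUGR array.

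Both metallothionein genes had higher intensity in every IUGR culture than in any control culture. MT1E had 386, 788, 752 and 418 units in IUGR replicates 1 to 4, against 243, 103, 113 and 219 units in control replicates 1 to 4. The lowest IUGR value was 1.59 times the highest control value. On the log2 scale MT1E averaged 9.12 ± 0.54 in IUGR and 7.30 ± 0.64 in control cultures (SD, n = 4 each), a difference of 1.82 ± 0.40 (SE) or 3.53-fold.

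MT2A had 404, 818, 686 and 313 units in IUGR replicates 1 to 4, against 194, 57.6, 73.9 and 171 units in control replicates 1 to 4. It averaged 9.01 ± 0.65 in IUGR and 6.77 ± 0.87 in control cultures on the log2 scale (SD, n = 4 each). Its difference was 2.24 ± 0.51 (SE), or 4.73-fold. Within IUGR cultures replicates 2 and 3 were the brighter pair for both genes, and within control cultures replicates 1 and 4 were. IUGR replicates 2 and 3 differed widely in PECAM1, at 9.89 and 725 units. Control replicates 1 and 4 were the controls with the highest summed fibroblast markers, at 1876 and 14794 units. In IUGR replicates 1 to 4 those markers summed to 22619, 19614, 13521 and 11706 units, highest in replicate 1, which was not of the brighter pair.

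Neither metallothionein difference passed the threshold over all rows, an adjusted p of 0.05 in limma. The adjusted p was 0.126 for MT1E and 0.135 for MT2A, and the exact two-sided permutation p was 0.0286 for each, the smallest that 4 against 4 arrays allow. The fibroblast markers were higher in IUGR cultures as well, and their part in these differences was not tested. In bulk cultures, fewer cells of a type and less RNA per cell cannot be told apart.

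MT1E and MT2A had patterns closer to each other than to those of any other of the 9 genes, with a root mean square difference of 0.29 over the 8 mean-centred log2 values. MT1E and MT2A are human-style names that are not symbols in the sheep gene table used here. Family members are close in sequence and the probes were not examined, so whether the 2 rows share signal was not tested. MT1A, another metallothionein row, had 148, 260, 242 and 190 units in IUGR replicates 1 to 4, against 120, 104, 83.3 and 134 units in control replicates 1 to 4. Its groups did not overlap either, and its difference of 0.92 ± 0.22 (SE) gave an adjusted p of 0.149 in limma. MT3 and MT4, whose genes are known mainly from brain and stratified epithelium, differed by -0.05 ± 0.16 (SE) and -0.07 ± 0.12 (SE). MT3 averaged 3.46 and 3.51 on the log2 scale in IUGR and control cultures, at the background level.

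**Figure D1:**
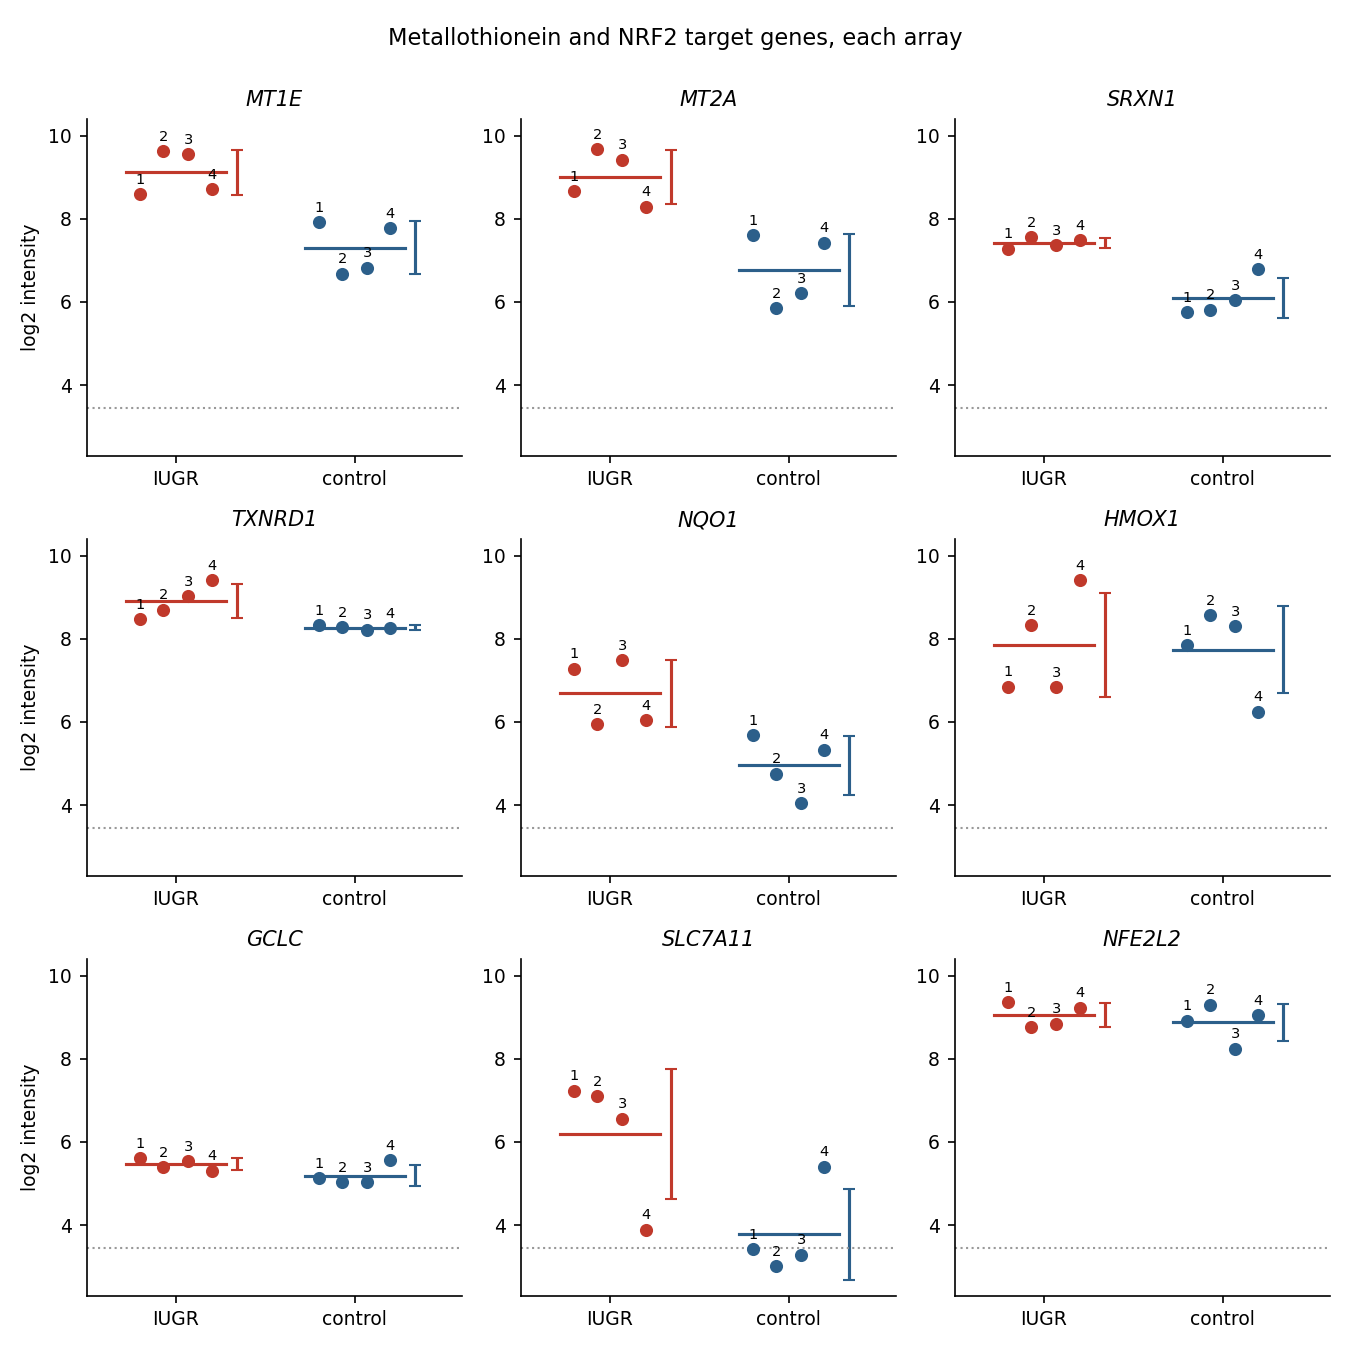
Log2 intensity (vertical axis) of the 9 measured genes on each of 8 arrays, with IUGR cultures in red and control cultures in blue and the replicate number beside each point. Horizontal lines are group means, error bars are SD over 4 arrays, and the dotted line is the background level of 3.44. The groups do not overlap for MT1E, MT2A, SRXN1, TXNRD1 and NQO1, while HMOX1, GCLC, SLC7A11 and NFE2L2 overlap.

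Of the thioredoxin pair, SRXN1 had the smallest unadjusted p of the 9 genes. SRXN1 encodes sulfiredoxin, which restores over-oxidised peroxiredoxins. It had 156, 188, 164 and 180 units in IUGR replicates 1 to 4, against 53.9, 56.1, 65.8 and 111 units in control replicates 1 to 4. The IUGR values spanned 1.21-fold from lowest to highest, the narrowest range of the 9 genes in that group. The control values spanned 2.06-fold, with replicate 4 highest. Summed fibroblast markers were 11706 to 22619 units in IUGR cultures and 14794 units in control replicate 4, against at most 1876 units in the other controls, and their part in the SRXN1 values was not tested.

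SRXN1 averaged 7.42 ± 0.12 in IUGR and 6.10 ± 0.48 in control cultures on the log2 scale (SD, n = 4 each). Its difference was 1.32 ± 0.23 (SE), or 2.50-fold, with an adjusted p of 0.101 in limma and an exact permutation p of 0.0286. Without control replicate 4 the difference was 1.56 ± 0.10 (SE) and passed with an adjusted p of 0.00511, in a setting where 2.21% of all rows passed. The call rests on leaving that array out, since with all 8 arrays and all rows the gene did not pass.

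TXNRD1 encodes cytosolic thioredoxin reductase, the selenoenzyme that recharges thioredoxin with NADPH. It had 356, 415, 521 and 680 units in IUGR replicates 1 to 4, against 322, 311, 297 and 305 units in control replicates 1 to 4. The 4 controls lay within a 1.09-fold range, with control replicate 4 among them, and the IUGR cultures spread over 1.91-fold. The lowest IUGR value was only 1.10 times the highest control. TXNRD1 averaged 8.90 ± 0.41 in IUGR and 8.27 ± 0.05 in control cultures on the log2 scale (SD, n = 4 each). The difference was 0.63 ± 0.20 (SE), or 1.55-fold, with an adjusted p of 0.211 in limma.

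NQO1 encodes the quinone reductase often used as the standard readout of NRF2 activity. It had 155, 61.7, 179 and 65.7 units in IUGR replicates 1 to 4, against 51.2, 26.9, 16.5 and 40.3 units in control replicates 1 to 4. All IUGR values lay above all control values, but within IUGR cultures replicates 1 and 3 stood well above replicates 2 and 4, the arrays with the fewest endothelial and the most mesothelial transcripts. NQO1 averaged 6.69 ± 0.81 in IUGR and 4.95 ± 0.71 in control cultures on the log2 scale (SD, n = 4 each), a difference of 1.74 ± 0.51 (SE) or 3.33-fold. Its adjusted p was 0.194 in limma. Without IUGR replicates 2 and 4 the difference was 2.43 ± 0.50 (SE, adjusted p = 0.245 in limma), and with passage as a covariate it turned to -0.71 ± 1.29 (SE).

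HMOX1 did not follow the other targets. It encodes haem oxygenase 1, which breaks haem into biliverdin, iron and carbon monoxide and answers to haem and the repressor BACH1 as well as to NRF2. It had 115, 321, 114 and 680 units in IUGR replicates 1 to 4, against 230, 381, 315 and 75.7 units in control replicates 1 to 4. The highest value was in an IUGR culture, the lowest in a control culture, and the groups overlapped. Means on the log2 scale were 7.85 ± 1.25 in IUGR and 7.74 ± 1.04 in control cultures (SD, n = 4 each). The difference was 0.11 ± 0.77 (SE), with a 95% interval of -1.71 to 1.93 and an exact permutation p of 0.914.

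The order of HMOX1 on the arrays was unlike that of NQO1. Within IUGR cultures HMOX1 was high in replicates 2 and 4, at 321 and 680 units, the arrays whose mesothelial and epithelial markers summed to 8899 and 13639 units, and low in replicates 1 and 3, where those markers summed to 154 and 152 units. In control cultures, where these markers were low throughout, HMOX1 was lowest in replicate 4. The smooth muscle marker list ran largely opposite to HMOX1. Its sums were highest in control replicate 4 and IUGR replicates 1 and 3, at 20451, 11693 and 10528 units. HMOX1 was lowest on those arrays, at 75.7, 115 and 114 units. IUGR replicate 4, with the highest HMOX1, had a smooth muscle sum of 1879 units. The order was not exact. IUGR replicate 2, with a sum of 8498 units, had HMOX1 at 321 units. The lowest sum, 1132 units, was in control replicate 3, where HMOX1 was 315 units. Without IUGR replicates 2 and 4 and control replicate 4, HMOX1 differed by -1.40 ± 0.25 (SE), with 2 IUGR arrays against 3 controls and an adjusted p of 0.105 in limma. The part of mesothelial or smooth muscle transcripts in the HMOX1 values was not tested.

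SLC7A11 encodes the cystine carrier of the xCT exchanger, which brings in the cystine for glutathione synthesis and is a target of both NRF2 and ATF4. It had 151, 137, 94.2 and 14.8 units in IUGR replicates 1 to 4, against 10.7, 8.04, 9.72 and 42.3 units in control replicates 1 to 4. Control replicates 1 to 3 lay below the background level of 10.8 units. IUGR replicate 4 was the low array of its group and control replicate 4 the high array of its own, so the groups overlapped. The same 4 arrays, IUGR replicates 1 to 3 and control replicate 4, had the highest summed smooth muscle markers, at 8498 to 20451 units against 1132 to 2853 units on the other arrays, and the part of those cells was not tested.

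SLC7A11 averaged 6.20 ± 1.57 in IUGR and 3.78 ± 1.10 in control cultures on the log2 scale (SD, n = 4 each). The difference was 2.42 ± 0.90 (SE), with a 95% interval of 0.28 to 4.55 and an adjusted p of 0.275 in limma. Without IUGR replicates 2 and 4 and control replicate 4 the difference was 3.66 ± 0.27 (SE), with an adjusted p of 0.0307 in limma. In that setting 1.98% of all rows passed, and 2 IUGR arrays stood against 3 controls, each below the background level. The arrays left out included the low IUGR array and the high control array, whose values made the groups overlap. The call rests on leaving arrays out, since with all arrays and all rows the gene did not pass. Because 3 controls were at background, the fold is likely understated by an unknown amount.

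The differences of GCLC and NFE2L2 were small, and their groups overlapped. GCLC encodes the catalytic subunit of glutamate-cysteine ligase, the rate-limiting step of glutathione synthesis. It had 49.0, 42.1, 46.6 and 39.6 units in IUGR replicates 1 to 4, against 35.1, 32.8, 32.6 and 47.2 units in control replicates 1 to 4. Every IUGR culture lay above control replicates 1 to 3, and control replicate 4 lay within the IUGR range. The difference was 0.27 ± 0.14 (SE), with a 95% interval of -0.05 to 0.60 and an adjusted p of 0.406 in limma.

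NFE2L2 is the gene for NRF2 itself, a protein set mainly by its breakdown rather than by its transcript. It had 655, 434, 458 and 599 units in IUGR replicates 1 to 4, against 481, 632, 303 and 529 units in control replicates 1 to 4. The groups overlapped, and the means were 9.05 ± 0.29 in IUGR and 8.88 ± 0.45 in control cultures on the log2 scale (SD, n = 4 each). The difference was 0.17 ± 0.25 (SE), with a 95% interval of -0.43 to 0.77 and an adjusted p of 0.821 in limma. NRF2 protein and its place in the cell were not measured by these arrays.

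Counted together, all 9 measured genes had a higher mean in IUGR cultures, against 46.7% of all rows. None of the 9 passed an adjusted p of 0.05 in limma, and 0% of all rows did. At an unadjusted p under 0.05, which 15.3% of all rows had in either direction, there were 6 of 9 genes, all higher (MT1E, MT2A, SRXN1, TXNRD1, NQO1 and SLC7A11), where 7.8% of all rows were higher. The groups did not overlap for 5 of 9, all higher, where 4.37% of all rows were higher without overlap. The median difference was 1.32 over the 9 genes and 0 over all rows. The genes were chosen with earlier results of these data known, so these counts are no independent support. MT1E and MT2A are counted as 2 genes here, although whether their rows share signal was not tested. With passage as a covariate 1 of the 9 genes, SRXN1, kept an unadjusted p under 0.05, against 8.48% of all rows in either direction. When the score of the endothelial list was the covariate there were 4, against 7.68% of all rows. Within a group passage differed only at IUGR replicate 2 and control replicate 1, so the fit with passage hardly separates it from group. The SE of the MT1E difference, for example, was 0.40 without passage and 1.31 with it. Among rows above the olfactory receptor level, a setting added after the data were seen, SRXN1 passed as well (adjusted p = 0.0492 in limma), as did 1.04% of those rows.

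**Figure D2:**
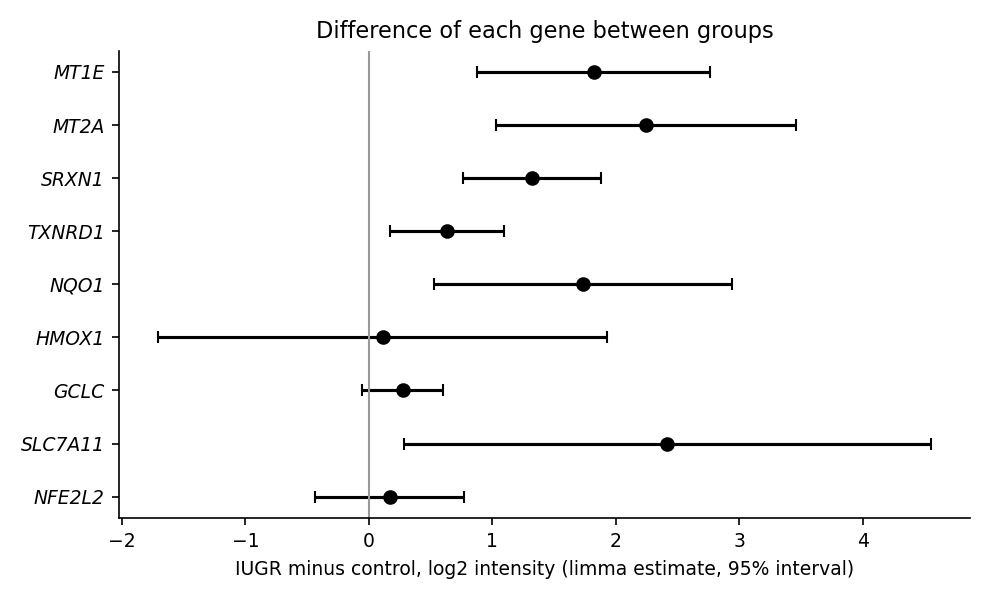
Difference between groups (IUGR minus control, log2 intensity, horizontal axis) for each of the 9 genes, with points for the limma estimate and bars for its 95% interval over 4 arrays a group. The intervals of HMOX1, GCLC and NFE2L2 include 0, and that of SLC7A11 is the widest, from 0.28 to 4.55.

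The arrays did not rank the same way from gene to gene. NQO1 was highest in IUGR replicates 1 and 3, the metallothioneins in IUGR replicates 2 and 3, and TXNRD1 and HMOX1 in IUGR replicate 4. Control replicate 4 was the top control for SRXN1, GCLC and SLC7A11, the lowest control for HMOX1, and in the middle for TXNRD1. By root mean square difference the nearest of the 9 genes was TXNRD1 for SRXN1 (0.52), GCLC for TXNRD1 (0.40) and GCLC for NFE2L2 (0.33). None of the 9 came nearer than 0.94 to HMOX1 or 0.93 to SLC7A11.

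**Figure D3:**
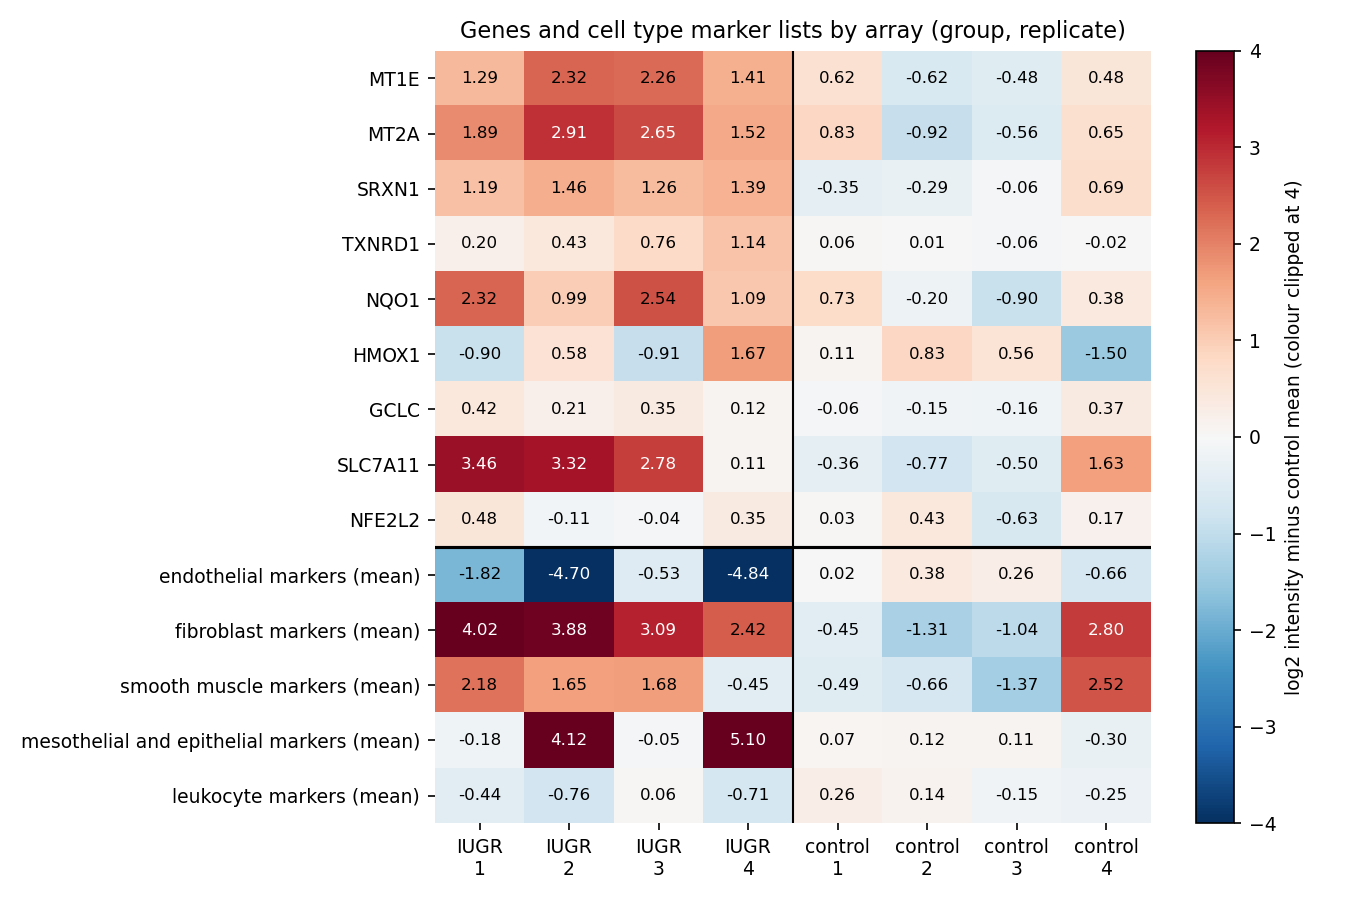
Log2 intensity minus the control mean for the 9 genes (upper rows), and the same for the mean log2 value of each of 5 cell type marker lists (lower rows), on the 8 arrays. Red is higher and blue is lower than the control mean, with the colour clipped at 4. SRXN1 stands between 1.19 and 1.46 in all IUGR cultures, whereas the endothelial list runs from -4.84 to -0.53 there.

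Among 7690 rows at or above the median row, those most like MT1E after MT2A were EFNB1, the gene of the membrane ligand ephrin-B1, and SMO, the Hedgehog signal transducer. Their root mean square differences over the 8 arrays were 0.30 and 0.35. The same pair came next after MT1E for MT2A, at 0.47 for EFNB1 and 0.45 for SMO. The rows most like SRXN1 were XPR1, a phosphate exporter gene, at 0.20, then AKT2, a kinase gene of insulin signalling, and ERGIC1, a gene of the early secretory pathway, both at 0.22. These rows were picked for likeness in the same 8 arrays, in which passage differs with group, so their own differences are no separate result.

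The wider pathway was read from 11 lists, chosen with earlier results of these data known, which hold 129 measured genes besides those above. Of these, 0 passed an adjusted p of 0.05 in limma, 23 were higher and 9 lower at an unadjusted p under 0.05, shares to be read against 7.8% and 7.48% of all rows, and their median difference was 0.24. The thioredoxin and peroxiredoxin list, with SRXN1 and TXNRD1 in it, had higher means in IUGR for 16 of 17 genes, against 46.7% of all rows. Its median difference was 0.38. SRXN1, TXNRD1, PRDX1 and PRDX2 were higher at an unadjusted p under 0.05, where 7.8% of all rows were. PRDX1 and PRDX2, peroxiredoxins that reduce hydrogen peroxide and are kept active by thioredoxin, differed by 0.87 ± 0.34 (SE) and 0.62 ± 0.26 (SE). PRDX4, the peroxiredoxin of the endoplasmic reticulum, differed by 0.27 ± 0.12 (SE), and SESN2, sestrin 2, by 1.01 ± 0.47 (SE). The groups overlapped for these 4 genes.

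Cystine uptake and glutathione synthesis had further genes with higher values in IUGR cultures. SLC3A2, the partner chain that SLC7A11 needs at the cell surface, had 812, 895, 366 and 720 units in IUGR replicates 1 to 4, against 253, 262, 181 and 355 units in control replicates 1 to 4. Its difference was 1.37 ± 0.33 (SE, adjusted p = 0.148 in limma), and IUGR replicate 4 was high here although it was low for SLC7A11. GSS, glutathione synthetase, differed by 0.94 ± 0.22 (SE) with no overlap of the groups. Of 10 measured genes on this list, SLC7A11 and GCLC included, 7 were higher and 3 lower, where 46.7% of all rows were higher.

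The peroxidases and transferases that spend glutathione had 6 of 15 genes higher and 8 lower, where 46.7% of all rows were higher. Their median difference was -0.03. GSTM3, a glutathione transferase, had 91.3, 215, 94.1 and 236 units in IUGR replicates 1 to 4, against 6.28, 32.1, 6.04 and 9.74 units in control replicates 1 to 4, where 3 of the controls were at background. GPX8, a peroxidase of the endoplasmic reticulum, differed by -0.81 ± 0.25 (SE), and GSTA4, which handles lipid aldehydes, by -0.51 ± 0.20 (SE). GSTK1 differed by 0.90 ± 0.30 (SE).

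NADPH, which TXNRD1 and NQO1 use, is supplied in part by known NRF2 targets. Among 11 genes of that list 9 were higher and 2 lower, where 46.7% of all rows were higher. ME1, malic enzyme, had 339, 346, 285 and 346 units in IUGR replicates 1 to 4, against 155, 149, 151 and 240 units in control replicates 1 to 4. Like SRXN1 it was even across IUGR cultures and highest among controls in replicate 4. Its difference was 0.95 ± 0.17 (SE, adjusted p = 0.101 in limma). PGD of the pentose phosphate pathway differed by 0.43 ± 0.13 (SE), PGLS of the same pathway by 0.25 ± 0.11 (SE), and mitochondrial IDH2 by -0.79 ± 0.25 (SE).

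The quinone and carbonyl list, which includes NQO1, had 16 of 20 genes higher, against 46.7% of all rows, and a median of 0.24. NQO1, AKR1B1, UGDH and PTGR1 were higher at an unadjusted p under 0.05, as were 7.8% of all rows. AKR1B1, aldose reductase, differed by 1.36 ± 0.45 (SE), UGDH, which makes UDP-glucuronate, by 1.14 ± 0.45 (SE), PTGR1, which reduces reactive alkenals, by 1.06 ± 0.41 (SE). CBR3, a carbonyl reductase, differed by 0.71 ± 0.32 (SE) with an unadjusted p of 0.0636 in limma's fit over all rows. The groups overlapped for each of these but NQO1.

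Around HMOX1, 9 of 12 haem and iron genes had higher means in IUGR cultures, against 46.7% of all rows. At an unadjusted p under 0.05 there were 4 higher and 1 lower, where 7.8% of all rows were higher and 7.48% lower. FTL, the ferritin light chain that stores iron, differed by 0.79 ± 0.20 (SE) and BLVRB, a biliverdin reductase, by 1.35 ± 0.45 (SE). SLC48A1, a haem transporter, had 128, 250, 53.6 and 601 units in IUGR replicates 1 to 4, against 37.5, 50.2, 53.6 and 58.6 units in control replicates 1 to 4. Its highest array was IUGR replicate 4, which also had the highest HMOX1. The next highest HMOX1, 381 units, was in control replicate 2, where SLC48A1 was 50.2 units. SLC48A1 was brightest in IUGR replicates 2 and 4, whose mesothelial and epithelial markers summed to 8899 and 13639 units. The part of those transcripts was not tested. ABCB6, a porphyrin transporter, differed by 0.60 ± 0.18 (SE) with no overlap.

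The list of NRF2, its relatives and its regulators was split, with 6 of 12 genes higher and 6 lower, where 46.7% of all rows were higher. Its median was -0.01. NFE2L2 itself counted among the higher. KEAP1, named after its values were seen, had 146, 122, 162 and 196 units in IUGR replicates 1 to 4, against 195, 148, 133 and 142 units in control replicates 1 to 4, a difference of 0.01 ± 0.18 (SE). DPP3, which can displace NRF2 from KEAP1, differed by 0.66 ± 0.25 (SE) with no overlap, and CUL3, the scaffold of the KEAP1 ligase, by -0.30 ± 0.14 (SE). BACH2, a repressor related to BACH1, was 3.44 ± 0.32 in IUGR and 4.53 ± 0.50 in control cultures on the log2 scale (SD, n = 4 each), with the IUGR values around background. NFE2L1, the NRF2-related factor of the proteasome response, differed by 0.52 ± 0.23 (SE).

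On the zinc side, 8 of 11 genes were higher, against 46.7% of all rows. MTF1, the zinc sensor that drives metallothionein genes, differed by 0.41 ± 0.18 (SE) with overlapping groups, and the zinc importer gene SLC39A1 by 0.45 ± 0.09 (SE) with none. SLC39A6, another zinc importer, differed by 1.14 ± 0.44 (SE). SLC30A1, on the same list and named after its values were seen, differed by 0.04 ± 0.33 (SE) with overlapping groups. SLC39A8, a carrier of zinc and manganese, had 18.0, 735, 30.6 and 1250 units in IUGR replicates 1 to 4, against 11.4, 5.51, 5.74 and 7.83 units in control replicates 1 to 4. Its 2 bright arrays were those with high KRT18, at 533 and 2104 units, and high WT1, at 242 and 594 units, epithelial and mesothelial markers that were at most 37.1 and 9.16 units on the other arrays. The metallothioneins did not share that split.

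Superoxide and peroxide genes were the list with most members lower, 10 of 13, against 7560 of all 15380 rows. Of the 10, 4 had an unadjusted p under 0.05 in limma, where 7.48% of all rows were lower. NOX4, an NADPH oxidase of vascular cells that makes hydrogen peroxide, had 36.0, 10.5, 184 and 13.9 units in IUGR replicates 1 to 4, against 464, 334, 251 and 183 units in control replicates 1 to 4. NOX4 ordered the IUGR arrays roughly as PECAM1 did, with replicates 2 and 4 at or near background. SOD3, extracellular superoxide dismutase, differed by -1.60 ± 0.41 (SE) with no overlap, and CYBA, the p22phox subunit, by -0.93 ± 0.27 (SE). NCF4, the last of the 4, lay at or near background in both groups.

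Because SLC7A11 is also an ATF4 target, genes of the amino acid response were set beside it. Of 13 genes, 12 were higher in IUGR cultures, against 46.7% of all rows, and 3 were higher at an unadjusted p under 0.05, against 7.8% of all rows. Their median difference was 0.82. PHGDH, the first enzyme of serine synthesis, had 478, 207, 248 and 237 units in IUGR replicates 1 to 4, against 134, 85.5, 71.8 and 167 units in control replicates 1 to 4. DDIT4, a brake on mTORC1, differed by 0.80 ± 0.26 (SE), SHMT2 of the mitochondrial folate cycle by 0.82 ± 0.28 (SE) and DDIT3, the CHOP gene, by 0.84 ± 0.36 (SE). In IUGR replicate 4, where SLC7A11 was low, these genes differed. PHGDH at 237 units and DDIT4 at 131 units lay above every control there, whereas SHMT2 at 340 units and DDIT3 at 118 units lay below control replicate 4, at 416 and 150 units.

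**Figure D4:**
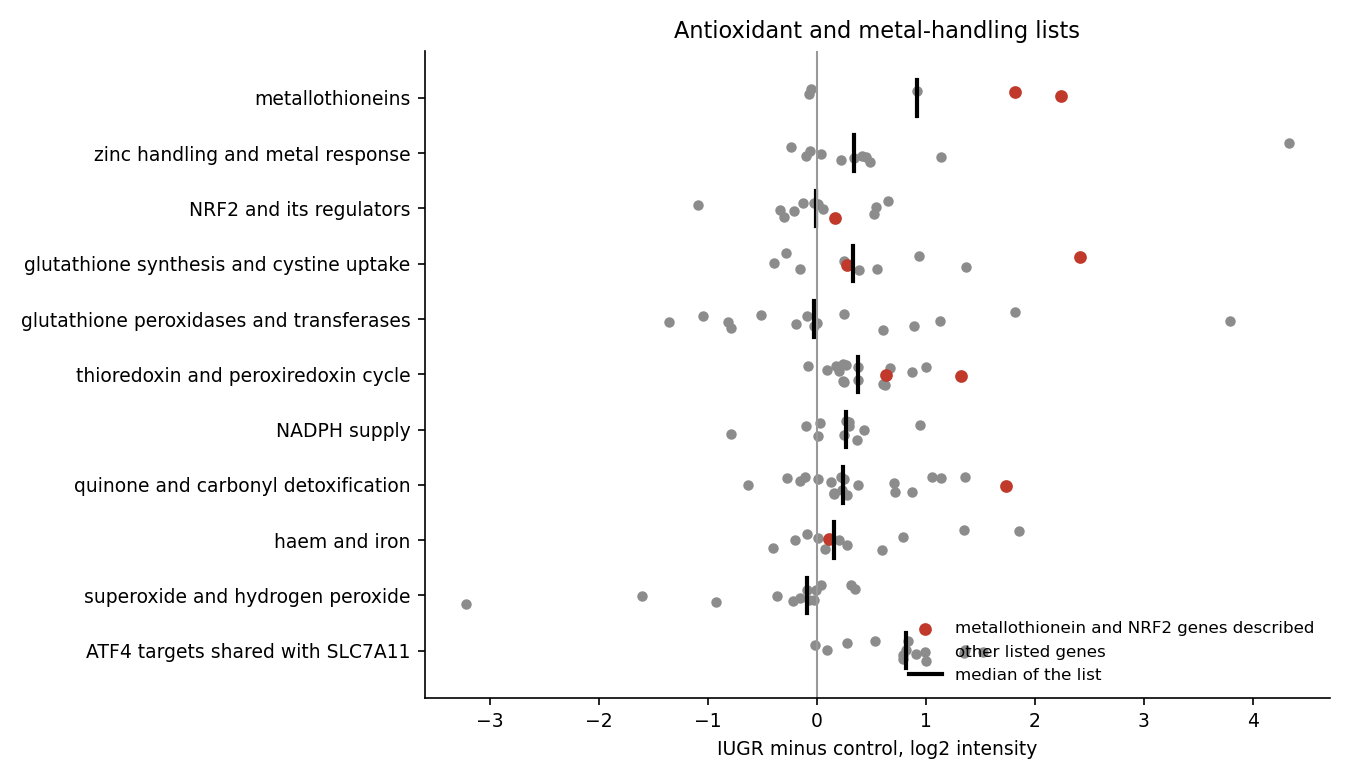
Difference between groups (IUGR minus control, log2 intensity, horizontal axis) for every measured gene of 11 antioxidant, metal-handling and stress lists, with the metallothionein and NRF2 genes described above in red, other genes in grey and a black bar at each list's median. Medians run from -0.09 for superoxide and hydrogen peroxide genes to 0.92 for metallothioneins, a list of 5 rows.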

How the data were processed

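RNA of 8 cultures was measured on 1-colour arrays, with biotinylated cRNA made by an Affymetrix protocol per the labels. The deposited values are linear intensity values, 1 row per gene name or number. The authors' background correction, probe summary and normalization are not stated in the labels. Array medians nearly coincided, so no further normalization was applied to the deposited intensity values.

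Values below the 10th percentile (5.89) were raised to it, log2 was taken, and all 15380 rows were fitted with limma 3.58.1 in R 4.3.3 (lmFit, eBayes, two-sided, Benjamini-Hochberg over all rows, threshold 0.05). Exact permutation tests used all 70 assignments, whose smallest p is 0.0286. The script was tested on simulated data. Groups came from the treatment label, and replicate numbers only name cultures. RefSeq's sheep gene table served for names only, and 7 of the 9 measured genes are symbols in it. No sequences were used here. The genes, the 11 pathway lists and 5 marker lists were chosen with earlier results of these data known. From each list up to 4 genes with the smallest unadjusted p were named, and for MT1E, MT2A and SRXN1 the 3 most similar rows. Alternatives covered normalization, low values, priors, array weights, covariates, a random block on the titles' first number, 1 row per gene and left-out arrays. P-values measure the spread between cultures.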

Additional observations from a re-analysis of the deposited data

Results flagged for a closer look

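Over 52 genes and both groups, 104 groups of 4 arrays were screened for an array far from the other 3 on the log2 scale, which chance flags in about 1 of 20 groups, and 3 were found. ME1 was 8.15 in IUGR replicate 3, with the other IUGR cultures at 8.40 to 8.44, and 7.91 in control replicate 4, with the other controls at 7.21 to 7.28. FTL was 11.26 in IUGR replicate 2, with the other IUGR cultures at 11.71 to 11.79. None of the 9 metallothionein and NRF2 genes had such an array.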

How the results depend on the processing

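No paired analysis was possible because the labels give no replicate numbers. The leading number of the titles, whose meaning the labels do not state, is shared by control replicate 1 with IUGR replicates 2 and 3 and by control replicates 3 and 4; as a random block it left 6 of 9 genes at an unadjusted p under 0.05 and changed no call. Each of the 9 genes was recomputed under 23 alternatives (22 for SLC7A11, which lies below the median row). MT1E, MT2A, SRXN1, TXNRD1, GCLC and SLC7A11 kept a higher mean in IUGR in each, with sizes that moved: TXNRD1 was 0.19 with passage (unadjusted p = 0.773, limma), and SLC7A11 ran from 1.28 with log2(value + 32) to 4.52 with passage and had an unadjusted p under 0.05 in 14 of 22 settings. MT2A exceeded SLC7A11 with log2(value + 32), at 1.93. NQO1 and NFE2L2 turned to -0.71 and -0.36 with passage as a covariate, and NFE2L2 ran from -0.041 (without control replicate 3) to 0.31 without single arrays. HMOX1 turned to -0.25 with array weights, -1.11 with the endothelial score as a covariate, -0.047 without IUGR replicate 2, -0.41 without IUGR replicate 4, -0.39 without control replicate 4 (-0.41 to 0.45 over all single arrays), -0.90 without IUGR replicates 2 and 4 and -1.40 without these and control replicate 4. The cause was not tested. Among rows above the olfactory receptor level 122 of 11769 passed. The SRXN1 adjusted p ranged from 0.00511 to 0.576 over the alternatives. The 6 genes at an unadjusted p under 0.05 became 5 to 7 without single arrays and 1 with passage. The 5 without overlap became 5 to 7 without single arrays and 8 without IUGR replicates 2 and 4 and control replicate 4, where HMOX1 was the 1 lower gene.

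Over all rows, limma called 0 (2350 at an unadjusted p under 0.05). It called 55 among rows at or above the median row, 61 with log2(value + 1), 1 with a trended prior, 20 with array weights, 10 with 1 row per gene symbol, 43 at an adjusted p of 0.1, 0 to 340 without single arrays (340 without control replicate 4) and 304 without IUGR replicates 2 and 4 and control replicate 4. Rows at an unadjusted p under 0.05 numbered 1375 among rows at or above the median row, where fewer rows were tested, 1304 with passage, 1181 with the endothelial score, and 1764 to 2729 without single arrays. Rows without overlap were 1286 with all arrays, 800 at or above the median row, 1597 to 2629 without single arrays, 2929 without IUGR replicates 2 and 4, and 5100 without these and control replicate 4, since fewer arrays overlap less often.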

Other observations

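The gap between MT1E and MT2A was taken within an array, so that a change of scale of the array cancels. MT1E minus MT2A on the log2 scale was -0.06, -0.05, 0.13 and 0.42 in IUGR replicates 1 to 4, against 0.32, 0.83, 0.61 and 0.36 in control replicates 1 to 4. The groups overlapped, at IUGR replicate 4.

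Genes above the control mean on the log2 scale numbered 8, 8, 7 and 9 of 9 in IUGR replicates 1 to 4, and 6, 3, 1 and 7 of 9 in control replicates 1 to 4. Control replicates 1 and 4 thus had more of the 9 genes above the control mean than the other 2 controls. The 12 fibroblast markers summed to 1876, 974, 908 and 14794 units in control replicates 1 to 4, with 4, 3, 4 and 0 of them at or below background, so replicate 4 stood apart from the other 3. The part of fibroblast transcripts in this order was not tested.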
